A study of Homo sapiens with 12 samples.

Results

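Mucins coat the surface of lung epithelium, and their transcripts were followed here in 2 non-small cell lung cancer lines, PC9 and H1650, exposed to EGFR inhibitors. The genes described are MUC1, MUC4, MUC13, MUC15, MUC16, MUC20 and MUC21, whose products are anchored in the membrane, and MUC5AC and MUC5B, whose products are secreted and form gels. They were found by matching the gene column of the deposited count table to these 9 names, out of 60591 genes in all. Of the 9 genes, 6 had enough reads to enter the test across 19108 genes, and MUC5AC, MUC13 and MUC21 did not. RNA from each line was sequenced in 3 groups of 2 libraries, giving 12 libraries in 6 groups. T0 cells received 0.1% DMSO, the drug solvent, and were collected at 0 h. Erlotinib cells received 10 µM erlotinib, a reversible EGFR inhibitor, for 36 h. Osimertinib cells received 0.1 µM osimertinib, an irreversible EGFR inhibitor, for 36 h. The labels give every sample's genotype as wild-type, meaning no engineered change, and per the study both lines carry an activating deletion in EGFR. Treated cells were in culture 36 h longer than T0 cells and a vehicle group at 36 h was not analysed here, so drug and time cannot be told apart in any comparison with T0. The study calls its RNA-seq replicates biological, and the labels do not say how the cultures were kept apart, so p-values measure the spread between these libraries. Because bulk RNA was measured, a loss of cells that make a transcript and a loss of transcript per cell cannot be told apart.

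Mucins are large glycoproteins whose extracellular part holds tandem repeats rich in serine and threonine, to which chains of sugars are attached through GalNAc. Membrane-anchored mucins stand out from the cell surface as part of the glycocalyx, and their cytoplasmic or juxtamembrane parts can contact receptor tyrosine kinases, as MUC1 does with EGFR and MUC4 with ERBB2. Gel-forming mucins are stored in granules of goblet cells and submucosal glands and polymerise through disulfide bonds to make airway mucus.

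The genes lie on 5 chromosomes, and 2 pairs of them are neighbours (coordinates are from GENCODE 29 on GRCh38, the build named in the submitters' processing notes). MUC20 (ENSG00000176945, chr3:195720882-195741123, plus strand) and MUC4 (ENSG00000145113, chr3:195746765-195812277, minus strand) are 5641 bases apart and point toward each other. MUC5AC (ENSG00000215182, chr11:1157953-1201138) and MUC5B (ENSG00000117983, chr11:1223066-1262172) both lie on the plus strand, 21927 bases apart. MUC1 (ENSG00000185499) is at chr1:155185824-155192916, MUC13 (ENSG00000173702) at chr3:124905442-124953819, MUC15 (ENSG00000169550) at chr11:26559033-26572233 and MUC16 (ENSG00000181143) at chr19:8848844-8981342, all on the minus strand. MUC21 (ENSG00000204544) is at chr6:30983718-30989903 on the plus strand.

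The repeats that define mucins also bear on how their reads can be placed. A script searched the longest annotated coding sequence of each gene for the shortest period at which successive stretches matched at 80% or more of their bases. In MUC1 the period was 60 bases and covered 69.4% of 3786 coding bases, in MUC4 it was 48 bases and covered 59.7% of 16236, and in MUC20 it was 57 bases and covered 32.7% of 2169. MUC21 had a period of 45 bases over 73.8% of its 1698 coding bases, MUC16 a period of 468 bases over 12.2% of 43521, and MUC15 had none. Identical 100-base stretches that occur more than once made up 35.9% of the windows in the MUC1 coding sequence, 21.7% in MUC20, 19.8% in MUC5B, 13.8% in MUC4 and 0.318% in MUC16, and 0% in MUC13, MUC15 and MUC21. How the authors counted reads that fit several places is not given in the sources used here. The unit below is shown for the 3 genes whose reads depend most on it among those with high levels, each taken from a stretch inside a coding exon where the next unit is identical (0 differences): chr1:155191123-155191242 for MUC1, chr3:195785025-195785120 for MUC4 and chr3:195725150-195725263 for MUC20, read on the coding strand.
MUC1 repeat unit: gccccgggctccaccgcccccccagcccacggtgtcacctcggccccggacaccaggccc
MUC4 repeat unit: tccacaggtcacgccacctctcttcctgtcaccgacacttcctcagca
MUC20 repeat unit: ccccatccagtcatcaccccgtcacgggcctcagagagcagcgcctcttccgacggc

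Promoters were available for 4 of the 9 genes from RefSeq (GRCh38.p14), as 300-base windows from 250 bases before a start site to 50 after it. Those of MUC1, MUC4 and MUC16 are shown because these are the tested genes among the 4 and because they rose together in PC9 cells as described further on. Capitals mark matches on either strand to TATAAA (the TATA box), GGGCGG (the GC box), CACCTG (an E-box), TGANTCA (the AP-1 core), TTCNNNGAA (the STAT element) and TGTTTAC (the forkhead element). The windows are chr1:155192866-155193165 for MUC1, chr3:195811880-195812179 for MUC4 and chr19:9065702-9066001 for MUC16, all on the minus strand, and the RefSeq start of MUC16 lies upstream of the span GENCODE 29 gives the gene.
MUC1 promoter: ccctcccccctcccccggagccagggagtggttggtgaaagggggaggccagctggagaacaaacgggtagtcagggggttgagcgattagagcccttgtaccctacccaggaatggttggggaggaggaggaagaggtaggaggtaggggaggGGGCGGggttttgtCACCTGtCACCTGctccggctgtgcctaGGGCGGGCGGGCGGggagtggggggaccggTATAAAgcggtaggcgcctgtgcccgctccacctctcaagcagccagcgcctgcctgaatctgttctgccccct
MUC4 promoter: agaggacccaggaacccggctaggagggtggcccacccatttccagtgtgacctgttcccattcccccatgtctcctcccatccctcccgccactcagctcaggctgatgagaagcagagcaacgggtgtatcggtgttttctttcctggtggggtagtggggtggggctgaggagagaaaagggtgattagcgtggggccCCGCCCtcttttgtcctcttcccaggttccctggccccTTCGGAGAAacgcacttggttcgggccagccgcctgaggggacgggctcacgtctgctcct
MUC16 promoter: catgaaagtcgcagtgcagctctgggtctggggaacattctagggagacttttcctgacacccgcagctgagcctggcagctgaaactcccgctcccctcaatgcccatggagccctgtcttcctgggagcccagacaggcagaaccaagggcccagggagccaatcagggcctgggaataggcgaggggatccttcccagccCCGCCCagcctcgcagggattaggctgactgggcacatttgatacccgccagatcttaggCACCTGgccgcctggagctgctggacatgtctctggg
The MUC1 window holds a TATAAA match at -24 from the start site, 4 GGGCGG matches, of which 3 overlap one another, and 2 CACCTG matches. The MUC4 window holds 1 GGGCGG match at -49 and 1 TTCNNNGAA match at -11, and the MUC16 window 1 GGGCGG match at -47 and 1 CACCTG match at 14. GGGCGG, found in all 3 windows shown, is found in 45% of 35116 promoters of this length. MUC16 has a further RefSeq start, whose window (chr19:9010360-9010659) holds no GGGCGG match but a CACCTG match at -159 and a TGANTCA match at -136. TATAAA is found in 11.5%, CACCTG in 20.6%, TGANTCA in 7.71%, TTCNNNGAA in 7.66% and TGTTTAC in 3.42% of them. GC content was 65.7% for MUC1 and 62% for both MUC4 and MUC16, against a median of 58.7% over all promoters.

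Libraries held 17961765 to 26346187 reads assigned to genes, so that 3 reads, the most that a count of 0 allows, correspond to 0.116 to 0.168 CPM (counts scaled to library size). All 6 epithelial markers examined (EPCAM, CDH1, KRT7, KRT8, KRT18 and KRT19) were read in every group, with a summed level of 6162 to 13298 CPM per library. Of 5 lung lineage markers 1, NAPSA, passed the count filter, while NKX2-1, SFTPB, SFTPC and SFTA2 did not, and the summed level of the 5 was 0.419 to 1.94 CPM. Summed markers of other cell types ranged over groups from 16.9 to 45.9 CPM for fibroblasts, most of it COL1A1 and COL3A1, from 0.193 to 5.83 CPM for endothelium and from 0.672 to 3.96 CPM for leukocytes. In PC9 the fibroblast sum was 18.4 to 21.1 CPM at T0 and 37.8 to 45.9 CPM with osimertinib, and the endothelial sum 2.67 to 2.81 CPM and 5.05 to 5.83 CPM. Reads of mitochondrial genes made up 4.36 to 5.36% of each T0 library and 5.77 to 7.202% of each treated library. This is the direction of MUC1, MUC15, MUC16 and MUC20 in both lines and of MUC4 in PC9. Among epithelial markers in PC9, KRT7 rose from 2294 to 3781 and 4086 CPM with erlotinib and osimertinib and EPCAM fell from 539 to 277 and 289.9 CPM, while in H1650 KRT7 fell from 2008 to 998 and 983 CPM and EPCAM rose from 207 to 242 and 312 CPM. CDH5, an endothelial cadherin, rose from 0.673 to 2.49 and 3.15 CPM in PC9 and from 0.0233 to 0.194 and 0.227 CPM in H1650, where its T0 level was under the 3-read floor. The part of these genes and of the mitochondrial share in the mucin results was not tested.

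At T0 the lines carried different mucins. Most reads of the 9 genes in PC9 came from MUC16, MUC4, MUC20 and MUC1, while those in H1650 came from MUC1 and MUC15 with only traces of the rest. The plot of levels by library shows this for each gene.

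**Figure D1:**
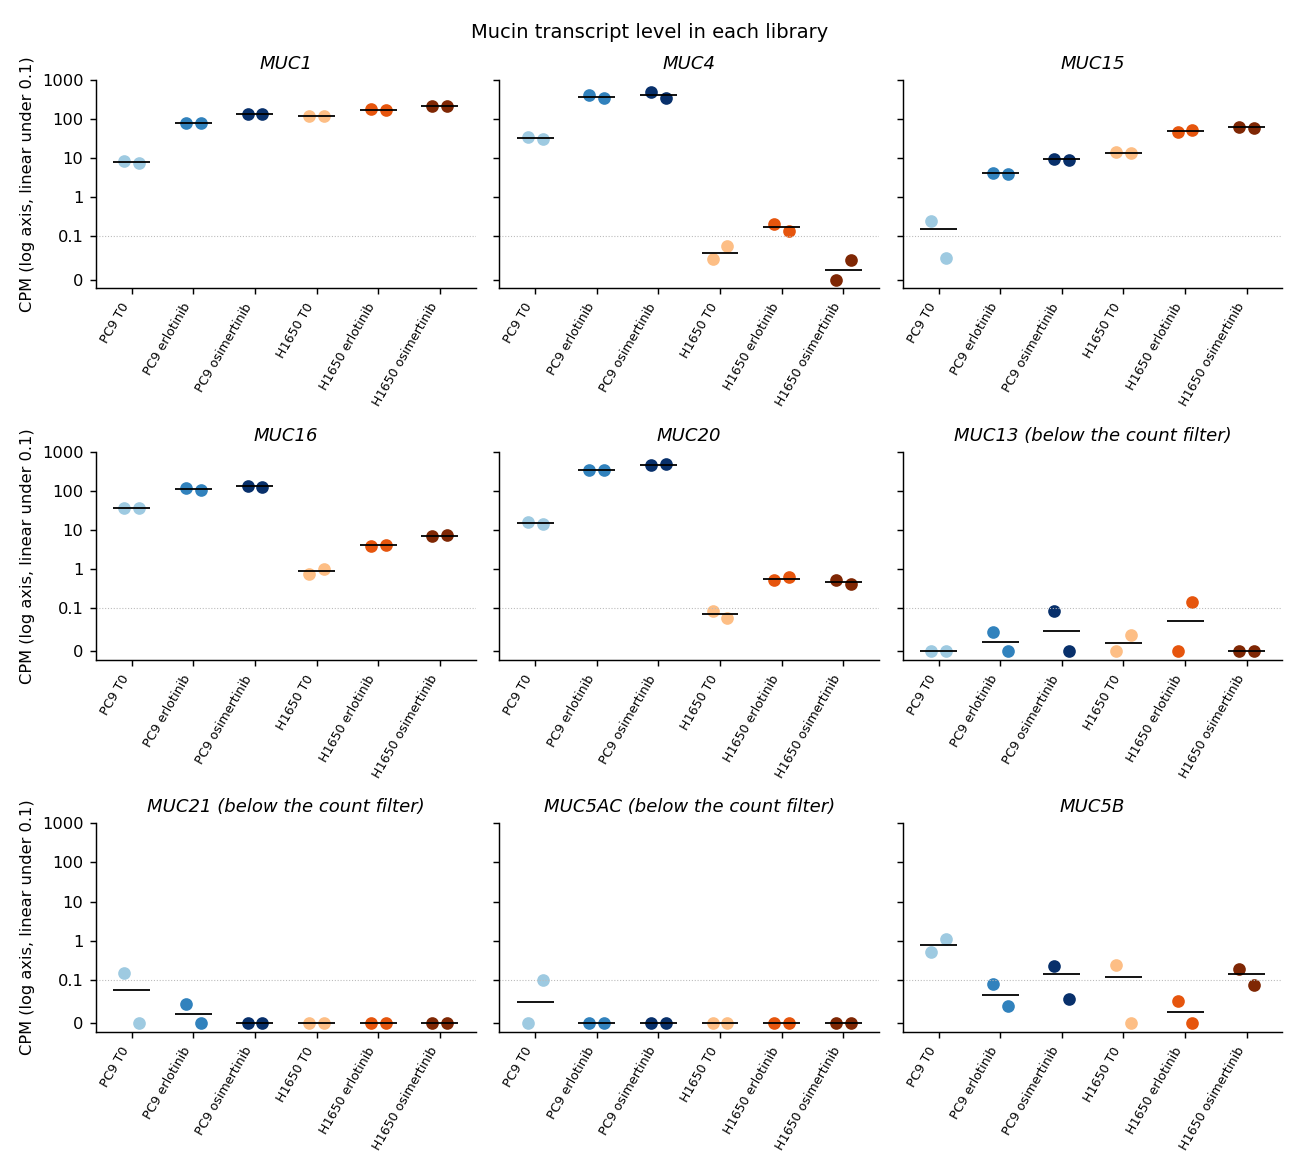
Level of each mucin gene in each of the 12 libraries, in CPM on an axis that is logarithmic above 0.1 and linear below it (dotted line); points are libraries and bars are the means of 2. MUC4 and MUC20 stand at 14.1 CPM or more in every PC9 library and below 1 CPM in every H1650 library, whereas at T0 MUC1 and MUC15 are higher in H1650.

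MUC1, the most widely expressed membrane mucin, measured 8.47 and 7.40 CPM in the PC9 T0 libraries and 119.5 and 117.9 CPM in the H1650 T0 libraries. MUC15, a small membrane mucin, had 5 and 1 reads in PC9 and 306 and 339 reads in H1650. Both genes were higher in H1650 with no overlap between libraries. MUC4, a very large mucin with an EGF-like part, had 692 and 620 reads in PC9 and 1 and 2 reads in H1650. MUC16, the largest membrane mucin and a serum marker of ovarian cancer, had 725 and 742 reads in PC9 and 16 and 26 reads in H1650. MUC20, a membrane mucin that can bind the receptor MET, had 312 and 286 reads in PC9 and 2 and 2 in H1650. These last 3 genes were higher in PC9, again with no overlap. The fitted log2 difference, H1650 minus PC9, was 3.90 for MUC1 (SE 0.0950, adjusted p = 2.37e-23) and 6.46 for MUC15 (SE 0.273, adjusted p = 6.27e-18). It was -5.36 for MUC16 (SE 0.152), -7.37 for MUC20 (SE 0.239) and -8.89 for MUC4 (SE 0.328), with adjusted p from 7.31e-22 for MUC16 to 2.78e-19 for MUC4 among these 3. Since MUC4 had only 3 reads over both H1650 libraries, the read ratio of PC9 to H1650, 516.5, has an exact counting interval from 176 to 2508 at 95%. For MUC20, with 4 reads in H1650, the ratio was 177 (68.6 to 650.2). MUC5B had 10 and 22 reads in PC9 and 5 and 0 in H1650, a fitted difference of -2.82 (SE 0.878, adjusted p = 0.00581). That MUC5B call was lost under DESeq2 (adjusted p = 0.0754), without PC9 T0 replicate 2 (0.117) and without H1650 T0 replicate 2 (0.137). Counting intervals in this text cover counting error only. All 6 tested mucins passed the test in this comparison, 2 higher and 4 lower in H1650, beside 69.6% of all genes called in either direction. MUC5B entered the test only through its reads in the PC9 T0 libraries and so had to be lower elsewhere, and its call adds nothing to this count. MUC4, with 0 to 4 reads in every H1650 library, entered only through PC9 libraries. Its direction here was therefore fixed too, and its call adds nothing to this count either. Since 2 lines of different origin are compared, each a single cell line, these differences cannot be assigned to any property of the lines.

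In PC9 cells both inhibitors were followed by higher levels of MUC1, MUC4, MUC15, MUC16 and MUC20, the 5 tested membrane mucins of the list. The rise does not extend to every mucin read in PC9, since MUC12, outside the list, was called lower with erlotinib. MUC20 rose from 15.7 and 14.1 CPM at T0 to 341 and 342 CPM with erlotinib and to 462 and 468 CPM with osimertinib. The means were 22.9-fold and 31.1-fold higher than at T0, and the treated replicates were close together (SD of 1.08 and 4.15 CPM). The log2 fold change was 4.52 with erlotinib (SE 0.0864, adjusted p = 1.00e-24) and 4.96 with osimertinib (SE 0.0874, adjusted p = 1.13e-25). MUC4 measured 34.9 and 30.6 CPM at T0, 410 and 333 CPM with erlotinib and 476 and 344 CPM with osimertinib. Its replicates were less alike than those of MUC20, yet every treated library was far above both T0 libraries. The log2 fold change of MUC4 was 3.50 (SE 0.122, adjusted p = 1.10e-19) and 3.65 (SE 0.122, adjusted p = 4.86e-20). MUC1 went from 8.47 and 7.40 CPM to 79.4 and 79.0 CPM with erlotinib and to 135 and 131 CPM with osimertinib. For MUC1 the log2 fold change was 3.32 (SE 0.0955, adjusted p = 2.02e-21) and 4.07 (SE 0.0952, adjusted p = 4.26e-23).

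MUC16 had the smallest log2 fold change of the 5 with each drug. It measured 36.6 CPM in both T0 libraries, 115 and 104 CPM with erlotinib and 134 and 125 CPM with osimertinib, a log2 fold change of 1.58 (SE 0.0866, adjusted p = 3.12e-15) and 1.82 (SE 0.0870, adjusted p = 1.28e-16). MUC15 was close to absent at T0, with 5 and 1 reads, and had 92 and 101 reads with erlotinib and 207 and 162 reads with osimertinib. Its 6 reads at T0 leave the size of the change loosely set: the read ratio was 26.9 (12.1 to 74.2) for erlotinib and 62.5 (28.4 to 171) for osimertinib. The test gave 4.70 (SE 0.347, adjusted p = 2.07e-12) and 5.91 (SE 0.296, adjusted p = 3.91e-16) on the log2 scale for MUC15, values that became 6.19 and 7.40 without PC9 T0 replicate 1 and 3.96 and 5.18 without replicate 2.

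The secreted mucin MUC5B, the main gel-forming mucin of submucosal glands, moved the other way in PC9 at very low counts. It had 10 and 22 reads at T0, 2 and 1 with erlotinib and 5 and 1 with osimertinib, so the T0 libraries were the highest of the 3 groups. The read ratio of T0 to erlotinib was 12.8 (3.99 to 65.1) and that of T0 to osimertinib 5.25 (2.17 to 15.4). The fitted log2 fold change of MUC5B was -3.55 (SE 0.957, adjusted p = 0.00211) and -2.36 (SE 0.857, adjusted p = 0.0188). MUC5B passed the count filter only through the PC9 T0 libraries, where it is highest, and a gene kept that way has to be lower elsewhere. Without PC9 T0 replicate 2 neither call was made (adjusted p = 0.0564 and 0.227). With DESeq2 the osimertinib call was lost (adjusted p = 0.144), as it was without PC9 osimertinib replicate 2 (adjusted p = 0.179).

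Of the 6 tested mucins, 5 were higher and 1 lower with erlotinib in PC9, and the same numbers held with osimertinib. Among all genes 32.7% were called higher and 29.1% lower with erlotinib, and 32.7% and 28.7% with osimertinib. The 1 lower gene, MUC5B, was kept only through the PC9 T0 libraries, so its call adds nothing to this count. It is included in the medians that follow. The median log2 fold change of the 6 was 3.41 with erlotinib and 3.86 with osimertinib, beside 0.07 and 0.06 for all genes tested. Both comparisons share the T0 libraries, so they are not independent of each other. The genes were also chosen with earlier results of these data known. Their counts and medians, here and in the other comparisons, therefore describe the list and are no test of it against all genes.

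**Figure D2:**
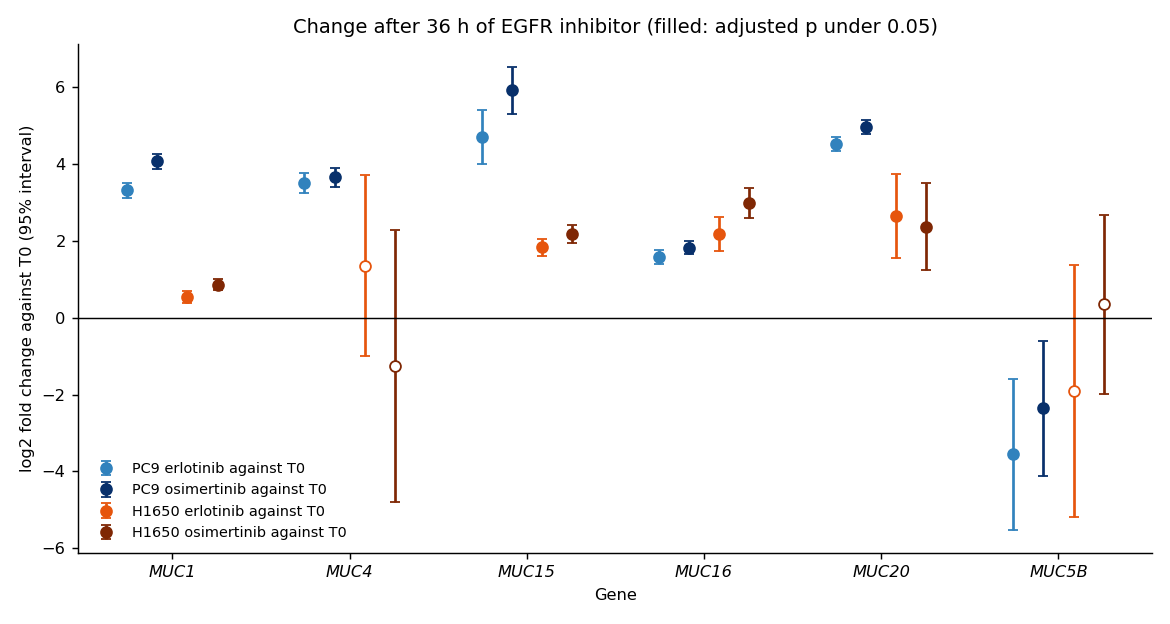
Log2 fold change against T0 of the 6 tested mucins for each line and drug, with 95% intervals from the fit; filled points passed an adjusted p of 0.05. All 5 membrane mucins lie above 0 in PC9, MUC1, MUC15, MUC16 and MUC20 also in H1650, and the intervals of MUC5B in both lines and of MUC4 in H1650, which had few reads, are the widest.

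In H1650 cells MUC1, MUC15, MUC16 and MUC20 rose with each drug, MUC1 from a high starting level and MUC20 from almost none. MUC1 measured 119.5 and 117.9 CPM at T0, 179.6 and 164.7 CPM with erlotinib and 213.6 and 217.4 CPM with osimertinib. The log2 fold change of MUC1 was 0.54 (SE 0.0729, adjusted p = 1.11e-06) and 0.86 (SE 0.0728, adjusted p = 2.89e-10), a small change that nonetheless separated the libraries. MUC15 measured 14.3 and 13.1 CPM at T0, 46.2 and 50.7 CPM with erlotinib and 63.6 and 59.95 CPM with osimertinib. Its log2 fold change was 1.83 (SE 0.112, adjusted p = 4.26e-13) and 2.18 (SE 0.111, adjusted p = 1.46e-14). MUC16 had 16 and 26 reads at T0, 74 and 90 with erlotinib and 142 and 164 with osimertinib, the order T0, erlotinib, osimertinib holding without overlap. The log2 fold change of MUC16 was 2.17 (SE 0.215, adjusted p = 4.91e-09) and 2.98 (SE 0.191, adjusted p = 1.30e-12).

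MUC20 had 2 and 2 reads at T0 in H1650, 10 and 13 with erlotinib and 11 and 9 with osimertinib. Its read ratio to T0 was 6.66 (2.28 to 26.5) and 5.46 (1.83 to 22.0), and the fit gave 2.66 (SE 0.533, adjusted p = 0.000223) and 2.37 (SE 0.553, adjusted p = 0.00155) on the log2 scale. Even so, the treated level of MUC20, 0.561 CPM on average with erlotinib, was below the 14.9 CPM of untreated PC9. MUC4 stayed between 0 and 4 reads in every H1650 library and was not called with either drug: the read ratio to T0 was 2.70 (0.617 to 16.2) with erlotinib and 0.364 (0.00693 to 4.53) with osimertinib. MUC5B had 0 to 5 reads per H1650 library and was not called either (adjusted p = 0.383 and 0.858). At this depth changes of MUC4 and MUC5B inside these limits were not detectable in H1650. Thus 4 of 6 tested mucins were called higher with erlotinib, beside 18% of all genes, and 4 of 6 with osimertinib, beside 17.8%. The median log2 fold change of the 6 was 1.59 and 1.52, that of all genes 0.01 and 0. The 6 include MUC4 and MUC5B, whose few reads leave their values, and so these medians, loosely set.

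The difference between the lines was tested directly, as the log2 drug change in H1650 minus that in PC9. It gave a smaller log2 fold change in H1650 for MUC1 and MUC15. With erlotinib the difference was -2.78 for MUC1 (SE 0.121, adjusted p = 9.98e-17) and -2.87 for MUC15 (SE 0.433, adjusted p = 3.72e-06). These 2 of 6 tested mucins were called in that comparison, beside 40.8% of all genes. For the others the difference was not called: 0.59 for MUC16 (95% interval 0.0910 to 1.09, adjusted p = 0.0536, and 0.0384 without PC9 erlotinib replicate 1), -1.86 for MUC20 (-3.49 to -0.226, adjusted p = 0.105), -2.15 for MUC4 (-5.21 to 0.914, adjusted p = 0.273) and 1.65 for MUC5B (-3.84 to 7.13, adjusted p = 0.682). With osimertinib 5 of 6 were called, beside 41.9% of all genes. MUC1 differed by -3.21 (SE 0.120, adjusted p = 5.82e-18) and MUC15 by -3.73 (SE 0.393, adjusted p = 7.43e-09). Because MUC15 had 6 reads in PC9 T0, leaving out PC9 T0 replicate 1 moved its difference to -4.36 with erlotinib and -5.22 with osimertinib, and leaving out replicate 2 moved it to -2.14 and -3.001, all still called. MUC16 went the other way, with a log2 fold change larger in H1650 by 1.16 (SE 0.227, adjusted p = 0.000124). These are differences of ratios and not of CPM. With osimertinib MUC16 rose from 0.875 to 7.04 CPM in H1650 and from 36.6 to 129 CPM in PC9. MUC15 rose from 13.7 to 61.8 CPM in H1650 and from 0.151 to 9.33 CPM in PC9. The calls for MUC4, -4.91 (SE 1.91, adjusted p = 0.0399), and MUC20, -2.59 (SE 0.834, adjusted p = 0.0242), rest on 3 and 4 reads in the H1650 T0 group, so the fitted sizes depend on how the fit treats such counts. Both were lost on leaving out H1650 T0 replicate 1 (adjusted p = 0.0534 for MUC4 and 0.156 for MUC20) or replicate 2 (0.229 and 0.117), and MUC4 also without H1650 osimertinib replicate 1 (0.0813) and with upper quartile scaling (0.0632).

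The osimertinib and erlotinib groups were also compared with each other. Their doses differ (0.1 and 10 µM), so the drugs are set side by side and not ranked. In PC9 the log2 difference, osimertinib minus erlotinib, was 0.75 for MUC1 (SE 0.0744, adjusted p = 1.76e-08), 1.21 for MUC15 (SE 0.150, adjusted p = 8.89e-07) and 0.45 for MUC20 (SE 0.0687, adjusted p = 2.43e-05). MUC16 differed by 0.24 (SE 0.0809, adjusted p = 0.0394), a call that was lost under DESeq2 (adjusted p = 0.0626), with upper quartile scaling (0.0614), without a count filter (0.135), in a fit of PC9 alone (0.0548) and without any single PC9 library other than PC9 erlotinib replicate 1 (0.0543 to 0.327). MUC4 had overlapping groups and a difference of 0.14 (95% interval -0.0711 to 0.36, adjusted p = 0.411). That value became 0.36 without osimertinib replicate 2 of PC9 (adjusted p = 0.0211) and -0.11 without replicate 1 (adjusted p = 0.615). MUC5B differed by 1.19 (-1.37 to 3.75, adjusted p = 0.602). In all 4 of 6 were called, each higher with osimertinib, beside 16.6% of genes in either direction. In H1650 MUC1 differed by 0.32 (SE 0.0721, adjusted p = 0.00333), MUC15 by 0.35 (SE 0.101, adjusted p = 0.0275) and MUC16 by 0.81 (SE 0.145, adjusted p = 0.000325), so that 3 of 6 were called beside 8.75% of genes. Without H1650 erlotinib replicate 2 the MUC1 and MUC15 calls were lost (adjusted p = 0.0784 and 0.0521). MUC15 was also not called without erlotinib replicate 1 or either osimertinib replicate of H1650 (0.0754 to 0.249). MUC20 had overlapping groups and differed by -0.29 (-1.05 to 0.475, adjusted p = 0.777). For MUC4 and MUC5B the intervals ran from -5.58 to 0.34 and from -0.912 to 5.41.

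Levels of different genes can be set beside each other only per length, and for this CPM was divided by the length column of the count table in kilobases (RPKM). On that scale MUC20 had the largest share in PC9 at T0 and with each drug, and the PC9 sum was higher with the drugs. The summed RPKM of the 9 genes was 6.37 at T0, 88.0 with erlotinib and 121.3 with osimertinib in PC9. The corresponding sums in H1650 were 29.03, 50.2 and 63.1. At T0 MUC20 made up 34.3% of the PC9 sum, MUC1 26.4%, MUC4 24.5% and MUC16 13.1%. With erlotinib these shares became 56.7%, 19.1%, 20.1% and 2.84%, and with osimertinib 56.0%, 23.3%, 16.1% and 2.44%. Read counts alone put MUC16 first in PC9 at T0 (36.6 CPM against 32.7 for MUC4 and 14.9 for MUC20). Its length is 43830 bases in the table, and its mean RPKM there was 0.835, below the 2.18 of MUC20. In H1650 MUC1 made up 86.7% at T0, 72.7% with erlotinib and 72.4% with osimertinib, and MUC15 13.1%, 26.9% and 27.3%. The remaining 7 genes together stayed below 1% of the sum there. The table's length equals the exon length of GENCODE 29 for 6 of the 9 genes but is 6837 against 4249 bases for MUC20, so a shorter transcript would raise the MUC20 RPKM by a factor of 1.61. The counting annotation is therefore another release or version. The shares also depend on how reads from repeats, and from stretches shared with other genes, were counted, which differs in weight from gene to gene. They hold for this counting only.

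**Figure D3:**
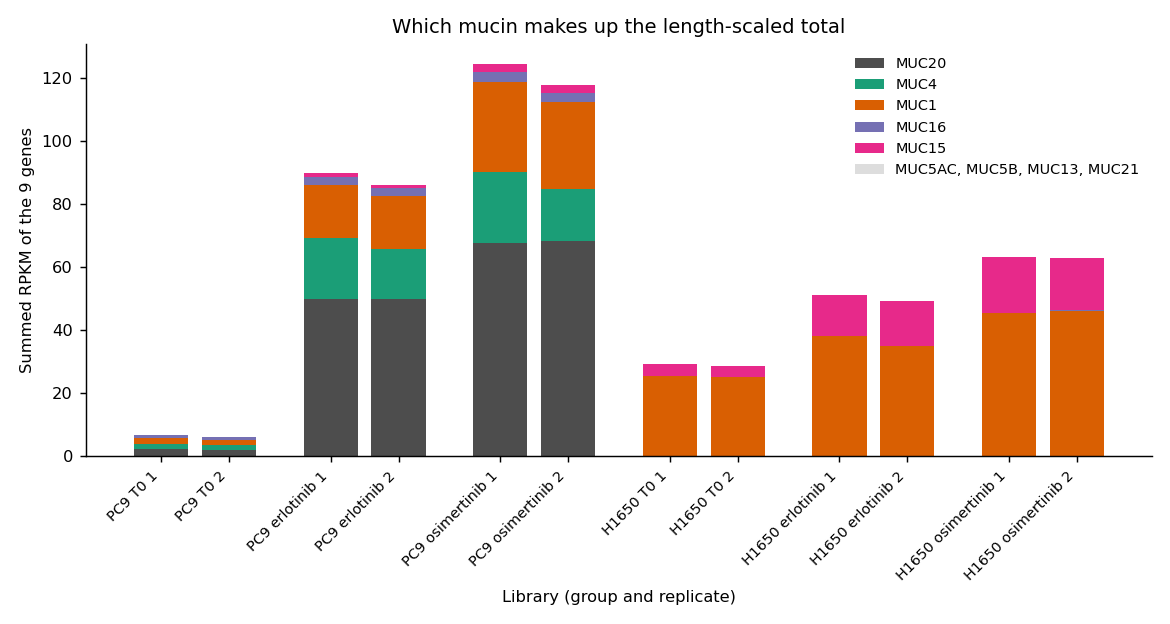
Summed RPKM of the 9 mucin genes in each library, with the part of each gene stacked from 0. PC9 libraries grow from 6.00 to 6.73 at T0 to between 86.1 and 124.7 with the drugs, mostly as MUC20, MUC1 and MUC4, while H1650 libraries hold MUC1 and MUC15.

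The other mucins on the list were close to silent in both lines. MUC5AC, the gel-forming mucin of surface goblet cells, had 2 reads in PC9 T0 replicate 2 and 0 in the other 11 libraries. MUC21, the human counterpart of epiglycanin, had 3 reads in PC9 T0 replicate 1, 1 in PC9 erlotinib replicate 1 and 0 elsewhere. MUC13, a membrane mucin of the gut, had 1 and 2 reads in the first replicates of PC9 erlotinib and PC9 osimertinib, 1 in H1650 T0 replicate 2, 3 in H1650 erlotinib replicate 2 and 0 elsewhere. No library exceeded 3 reads for any of these genes, so a library in which they are at 0 allows at most 0.116 to 0.168 CPM, and no comparison was made.

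Ordered by mean CPM, the 6 groups fell differently for each gene. For MUC1 the order was PC9 T0, PC9 erlotinib, H1650 T0, PC9 osimertinib, H1650 erlotinib and H1650 osimertinib, and each step passed the test, the smallest being 0.17 on the log2 scale between H1650 T0 and PC9 osimertinib (SE 0.0733, adjusted p = 0.0446). The neighbours were found by sorting these same levels, so the direction of each step was set beforehand, and this smallest step lies near the threshold. With osimertinib MUC1 in PC9 was 133 ± 3.37 CPM (SD, n = 2), beside the 118.7 ± 1.12 CPM of untreated H1650. MUC15 had the 3 PC9 groups below the 3 H1650 groups, and its highest PC9 level, 9.33 ± 0.347 CPM, was below H1650 T0 by 0.55 (SE 0.128, adjusted p = 0.000406). For MUC16 the lines stood the other way round, with the highest H1650 level, 7.04 ± 0.373 CPM, below PC9 T0 by 2.38 (SE 0.108, adjusted p = 2.83e-17). The test did not separate the neighbouring H1650 groups of MUC4, its 2 treated PC9 groups or the 2 treated H1650 groups of MUC20. In MUC5B the only neighbours it separated were PC9 osimertinib and PC9 T0.

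Among 14991 genes with a mean of at least 1 CPM, those whose log2 CPM followed each mucin most closely over the 12 libraries were ranked by Pearson's r, as a description, since the libraries form 6 groups in 2 lines. They were AC110619.1 and SIDT2 for MUC1 (0.993 each), LINC01895 and TMEM44-AS1 for MUC4 (0.998 and 0.997), OS9 and GLT8D2 for MUC15 (0.994 and 0.992), FAM102A and FIG4 for MUC16 (0.995 and 0.994) and ABCC5 and CLSTN3 for MUC20 (0.997 and 0.996). For MUC5B the nearest, DEDD2 and HOMER3, reached 0.937 and 0.931.

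MUC4 and MUC20 are neighbours, so the other tested genes within 300 kb were looked at after their values were seen. Of 17 such genes 5 (29.4%) were called higher with both drugs in PC9 and 2 (11.8%) lower, beside 27.7% and 25.1% of all genes tested. MUC20P1, a MUC20 pseudogene, had 39 and 42 reads at T0, 803 and 868 with erlotinib and 1106 and 838 with osimertinib, a log2 fold change of 4.11 (adjusted p = 1.64e-16) and 4.60 (adjusted p = 9.36e-18). Its transcripts share 15.97% of the 100-base stretches of MUC20, or 43.1% of its own, so reads of the pair may be exchanged. MUC20P1 is among the 5 genes called higher, but its rise may not be separate from that of MUC20. The non-coding LINC01983 changed by 2.02 and 2.30 (adjusted p = 2.51e-06 and 2.93e-07), KIF3AP1 by 1.45 and 1.65 (0.0329 and 0.0167), MUC20-OT1 by 0.64 and 0.49 (8.33e-06 and 0.000341) and PPP1R2 by 0.42 and 0.29 (5.40e-05 and 0.00279). The genes called lower were TFRC, the transferrin receptor, by -1.44 and -1.36 (3.35e-15 and 1.02e-14), and ACAP2 by -0.23 and -0.34 (0.0201 and 0.00143). TNK2, the kinase gene next to MUC4, had -0.15 and -0.18 (adjusted p = 0.200 and 0.118).

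**Figure D4:**
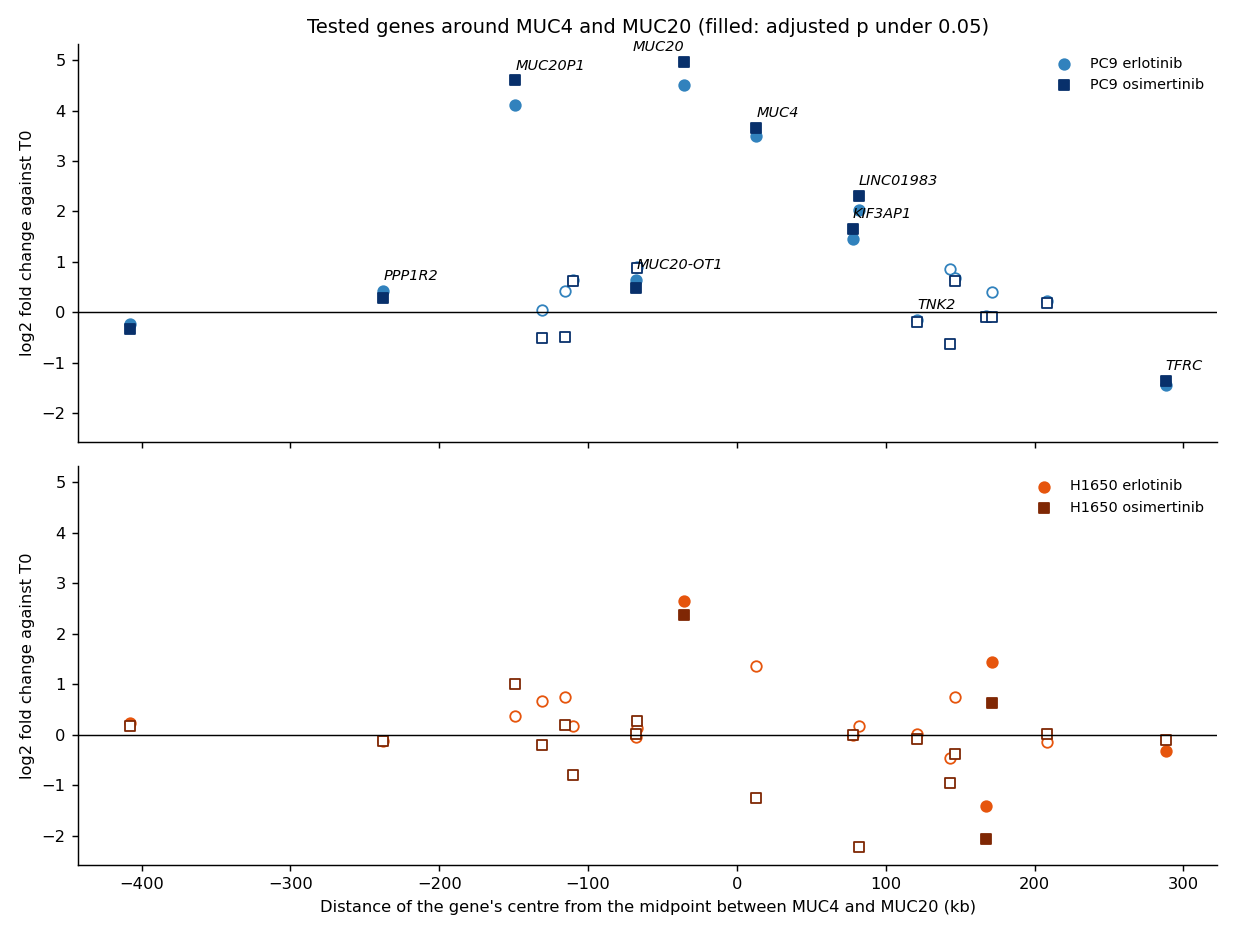
Log2 fold change against T0 of the tested genes around MUC4 and MUC20, by the distance in kb of the gene's centre from the midpoint between the pair, for PC9 (top) and H1650 (bottom); filled points passed an adjusted p of 0.05. In PC9 the largest values belong to MUC20, MUC20P1 and MUC4, and TNK2 is near 0.

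MUC20 also overlaps MUC20-OT1 on the same strand along 42.8% of its exon bases, and the 2 share 34.6% of the 100-base stretches of MUC20. MUC20-OT1 was at 29.4 and 30.9 CPM in PC9 T0 and at 29.9 and 32.4 CPM in H1650 T0, where MUC20 was at 0.0933 and 0.0772 CPM. Values of MUC20 are therefore those of this counting, with reads in shared stretches uncertain. MUC1 shares 48 exon bases with AL713999.1, MUC5B 434 with its antisense gene MUC5B-AS1 and MUC15 175 with ANO3 on the opposite strand. Whether the counting used strand is not given in the sources used here.

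Genes that act on mucins were counted from lists, beside the mucins outside the 9. Of 13 other mucins or mucin-like genes 4 passed the filter, 2 of them higher and 1 lower with erlotinib in PC9, 3 higher with osimertinib, and 0 called in H1650 with either drug by edgeR as described or by DESeq2. With upper quartile scaling, at least 10 counts in every library, a fit of H1650 alone or the replicate block, edgeR called 1 higher in H1650 with erlotinib. At an unadjusted p under 0.05 edgeR gave 1 of the 4, CD164 (adjusted p = 0.0509), in H1650 with erlotinib and 0 with osimertinib. The sialomucin CD164 went from 270 ± 14.2 to 319 ± 22.4 and 381 ± 4.78 CPM in PC9 (SD, n = 2), a log2 fold change of 0.24 and 0.50. OVGP1 was called higher with both drugs in PC9 and MUC12 lower with erlotinib, all at means of 3.03 CPM or less. OVGP1 passed the filter through the treated PC9 libraries, where it is highest, so its calls add nothing to the counts. MUC3A, an intestinal membrane mucin, rose with osimertinib in PC9 by 2.34 (adjusted p = 3.81e-05), from 0.347 to 1.81 CPM.

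The GALNT enzymes place the GalNAc sugar on serine or threonine that starts each O-glycan chain. For the lists that follow, the shares of all genes called higher and lower were 32.7% and 29.1% with erlotinib and 32.7% and 28.7% with osimertinib in PC9, and 18% and 18.5%, then 17.8% and 17.9%, in H1650. Of 18 GALNT genes 14 were tested: 3 were higher and 7 lower with erlotinib in PC9, 4 and 6 with osimertinib, 4 and 7 with erlotinib in H1650, and 4 and 6 with osimertinib. The median log2 fold change of the 14 was -0.18, -0.15, -0.41 and -0.47 in that order. GALNT14 fell in PC9 from 8.84 ± 1.53 CPM to 0.497 ± 0.0698 and 1.10 ± 0.281 CPM, by -4.13 and -2.98 (adjusted p = 1.10e-14 and 1.08e-12). GALNT7 was higher in PC9, at 97.2, 164 and 118 CPM in T0, erlotinib and osimertinib. In H1650 GALNT12 rose from 12.4 ± 0.639 to 24.1 ± 0.120 and 23.8 ± 1.46 CPM (0.96 and 0.94), and GALNT13 fell from 6.63 to 3.74 and 4.36 CPM (-0.81 and -0.60).

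Of 14 enzymes that extend, branch or cap O-glycans 12 were tested, with 4 higher and 3 lower for each drug in PC9, 4 and 1 with erlotinib in H1650, and 5 and 1 with osimertinib. GCNT4, a branching enzyme, rose in PC9 from 1.97 ± 0.0647 to 10.3 ± 0.30 and 25.8 ± 3.18 CPM (2.38 and 3.70). B3GNT3, which extends the core chain, fell in PC9 from 153 ± 1.04 to 42.4 ± 0.597 and 66.8 ± 3.51 CPM, by -1.85 and -1.19. In H1650 it was at 48.7 CPM at T0 and at 108 and 109 CPM with the drugs, 1.15 and 1.16 higher, and the changes in the lines differed by 2.995 and 2.35 (adjusted p = 5.12e-18 and 7.08e-16). ST3GAL1, which caps chains with sialic acid, also moved in opposite directions: 0.84 and 0.83 in PC9, -0.62 and -0.83 in H1650. The fucosyltransferase FUT3 rose in H1650 from 10.0 to 29.2 and 23.4 CPM (1.54 and 1.23).

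All 8 genes of the list of mucin partners and of proteases that release mucins from the membrane were tested. In PC9 6 were higher and 2 lower with erlotinib and 5 and 2 with osimertinib, and in H1650 2 and 4, then 3 and 3. MSLN, the cell surface ligand of MUC16, rose in PC9 from 57.0 to 150 and 197 CPM (1.39 and 1.79) and in H1650 from 146 ± 11.6 to 234 ± 22.3 and 234 ± 26.7 CPM (0.68 each). LGALS3, a lectin that binds MUC1, rose in PC9 from 69.1 to 205 and 239 CPM (1.57 and 1.79), and in H1650 it was at 122, 126 and 128 CPM (adjusted p = 0.634 and 0.469). ERBB2, the MUC4 partner, rose in PC9 by 1.01 and 1.11 and in H1650 by 0.21 and 0.46. MMP14, a membrane protease that can shed MUC1, rose in PC9 from 28.8 ± 1.31 to 101 ± 3.35 and 191 ± 2.34 CPM and fell in H1650 by -0.53 and -0.35. EGFR itself fell in PC9 from 1164 to 674 and 758 CPM (-0.79 and -0.62). MET, which MUC20 can bind, rose in PC9 from 634 to 796 and 917 CPM (0.33 and 0.53) and fell in H1650 from 369 to 221 and 236 CPM (-0.74 and -0.64), and the values of all 8 genes are in the plot of glycosylation and partner genes.

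**Figure D5:**
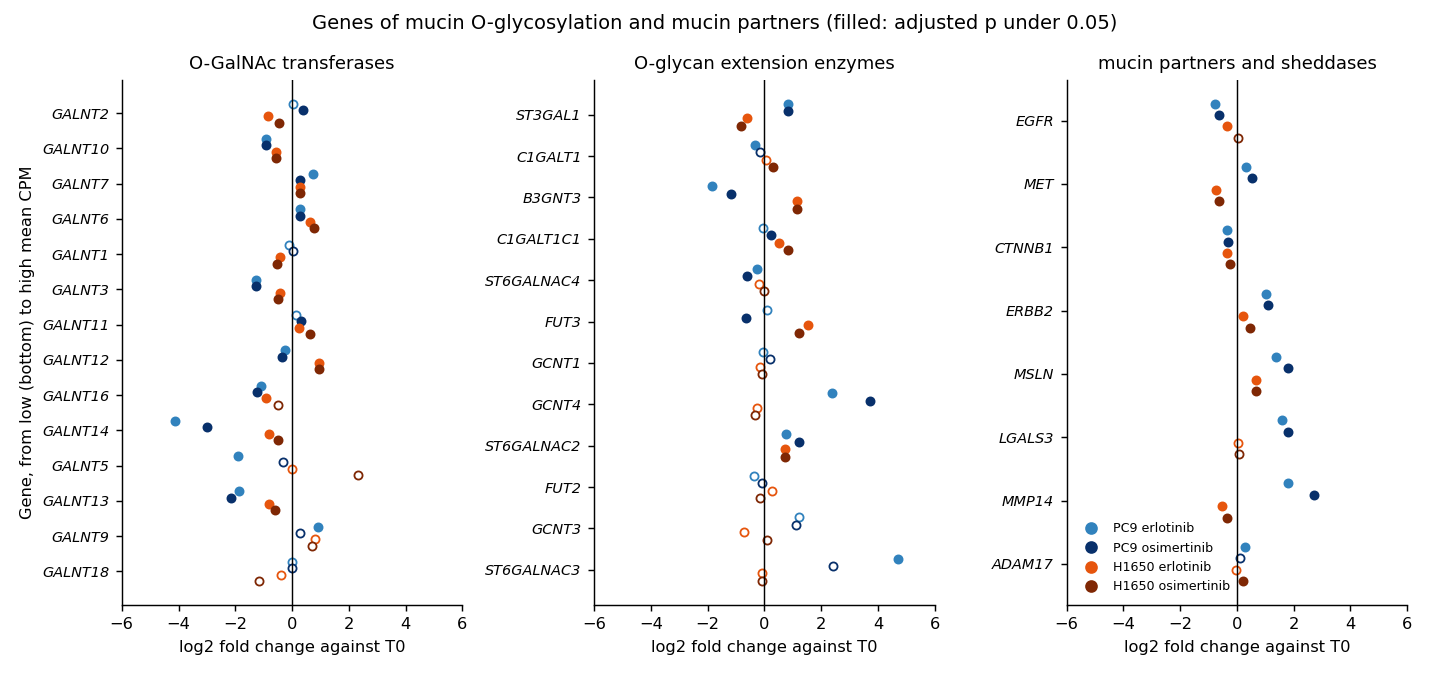
Log2 fold change against T0 of the tested genes of 3 lists, each gene in a row with a point per line and drug; filled points passed an adjusted p of 0.05. GALNT14, GCNT4, B3GNT3 and MMP14 lie far from 0 in PC9, and B3GNT3, ST3GAL1 and MMP14 lie on opposite sides of 0 in the 2 lines.

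Regulators and other products of mucus-secreting cells were mostly at low levels. Of 10 regulators 5 were tested, with 2 higher and 1 lower with erlotinib and 2 higher with osimertinib in PC9, and 4 higher and 1 lower, then 2 higher, in H1650. AGR2, the disulfide isomerase needed for mucin folding, rose in PC9 from 4.06 to 6.02 and 10.0 CPM (0.57 and 1.31) and in H1650 from 3.77 to 6.13 and 7.68 CPM (0.70 and 1.03). SPDEF, a goblet cell factor, was called lower with erlotinib in PC9 (0.447 to 0.0224 CPM) and higher with erlotinib in H1650 (0.116 to 1.08 CPM). The lower level of each pair is at or under the 3-read floor. Neither line had a SPDEF call with osimertinib (adjusted p = 0.0629 in PC9 and 0.0919 in H1650). In a fit of PC9 alone 0 regulators were called lower with erlotinib. Of 19 airway secretory products 7 were tested: 4 higher and 2 lower with each drug in PC9, 1 and 1 with erlotinib and 1 and 0 with osimertinib in H1650. TFF1 passed the filter through PC9 T0 (1.44 CPM, with 0.113 CPM or less in the other groups). BPIFB1 passed it through treated PC9 libraries (0.883 CPM with osimertinib, 0 at T0). The direction of both in PC9 was fixed by the filter, so their calls add nothing to these counts. FCGBP, a mucus protein, rose in PC9 from 5.05 ± 1.70 to 18.8 ± 0.210 and 27.4 ± 0.566 CPM (1.90 and 2.44). CLCA2 rose in H1650 from 53.8 to 91.3 and 132 CPM (0.76 and 1.29). In PC9 it was close to silent and was called lower (0.299 CPM at T0, 0 with erlotinib and 0.0462 with osimertinib, adjusted p = 0.000171 and 0.010).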

How the data were processed

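RNA from PC9 and H1650 cells was sequenced in 12 libraries (6 groups of 2), mapped to groups by their titles. The authors deposited a table of raw counts, read counts per gene from featureCounts, with a gene length column. Their processing notes name GRCh38 and DESeq2; aligner, annotation, strand setting and the handling of multi-mapped reads are not given in the sources used here. Library totals were 17961765 to 26346187 reads.

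The counts were tested with edgeR 4.0.16 in R 4.3.3: filterByExpr (minimum count 10), TMM scaling, 1 mean per group over all 12 libraries, the quasi-likelihood test, Benjamini-Hochberg adjustment over 19108 genes and a threshold of 0.05. All adjusted p-values come from it unless DESeq2 (1.42.0) is named. On simulated counts for PC9 erlotinib against T0 it recovered 170 of 200 changed genes (log2 size 1) with 14 false calls among 17906 genes. In the data 11812 of 19108 genes were called in that comparison, far more than were changed in the simulation, so these rates need not hold here. CPM used TMM library sizes, a mean ± SD covers 2 libraries, and RPKM is CPM per kilobase of the length column. Ratios of low counts carry exact 95% intervals. Alternatives were DESeq2, RLE and upper quartile scaling, no filter, at least 10 counts in every library, a threshold of 0.01, a fit per line, a replicate block and leaving out each library.

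Named were all 9 mucins, the 2 most alike genes per tested mucin (mean of at least 1 CPM), and per list the called gene with the largest mean change in each direction and line; other list genes were named after their values were seen. The members and lists were chosen with earlier results of these data known. ERN2, on a list, was not analysed here. Replicates of each group differed by more than sampling noise. Repeats and overlaps came from GENCODE 29 and promoters from RefSeq.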

Additional observations from a re-analysis of the deposited data

Results flagged for a closer look

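The drug change differed between the lines by a direct test of that difference (H1650 minus PC9, edgeR) for 2 of 6 tested mucins with erlotinib, beside 40.8% of all genes. On the log2 scale it was -2.78 for MUC1 and -2.87 for MUC15, where MUC1 changed by 3.32 in PC9 against 0.54 in H1650 and MUC15 by 4.70 against 1.83. With osimertinib 5 of 6 mucins differed in this test, beside 41.9% of all genes. MUC1 differed by -3.21, MUC15 by -3.73, MUC4 by -4.91 and MUC20 by -2.59, each with the smaller or lower log2 fold change in H1650. MUC16 differed by 1.16, with the larger log2 fold change in H1650. MUC4 and MUC20 had 0 to 13 reads per H1650 library, and their differences with osimertinib were not called on leaving out either H1650 T0 library. MUC15 had 6 reads in PC9 T0, and its differences ran from -2.14 to -4.36 with erlotinib and from -3.001 to -5.22 with osimertinib on leaving out either PC9 T0 library, with the calls kept.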

How the results depend on the processing

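Counts of mucins called moved by over 1.5 times mainly where every library had to hold at least 10 counts. Only MUC1 and MUC16 are then tested, and 2 mucins were called in each drug comparison with T0, in the lines at T0, in the osimertinib difference between lines and in PC9 osimertinib against erlotinib, and 1 in the erlotinib difference between lines; fewer genes tested is the construction of this setting. At a threshold of 0.01 the osimertinib difference between lines had 3 calls. Leaving out each library in turn gave 5 to 6 calls for PC9 erlotinib, PC9 osimertinib and the lines at T0, 4 to 4 for each H1650 comparison with T0, 2 to 3 and 3 to 5 for the erlotinib and osimertinib differences between lines, 3 to 4 for PC9 and 1 to 3 for H1650 osimertinib against erlotinib.

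Only values without a call changed sign. MUC4 in PC9 osimertinib against erlotinib ran from -0.11 without PC9 osimertinib replicate 1 to 0.36 without replicate 2, and MUC5B in that comparison from -0.15 to 1.80. For MUC5B in H1650 the range over left-out libraries was -4.31 to 2.39 with erlotinib (2.39 without H1650 T0 replicate 1) and -0.73 to 4.64 with osimertinib (-0.73 without H1650 T0 replicate 2, -0.26 without H1650 osimertinib replicate 1), and its erlotinib difference between lines ran from -0.74, without H1650 erlotinib replicate 1, to 5.95. The cause was not tested. Over all alternatives 975 values of single mucins kept direction and side of the threshold, 32 lost a call and 3 gained one.

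The labels number replicates 1 and 2 in every group. The differences of replicate 1 and replicate 2 correlated between groups at -0.0671 to 0.0947 in 15 pairs of groups. These values show no pairing by number but cannot exclude it. Among all genes the replicate block gave 7821 calls against 6966 without it in H1650 erlotinib against T0. For H1650 osimertinib against erlotinib it gave 2670 against 1672. With the replicate number as a block, 6, 6, 4 and 4 mucins were called in PC9 erlotinib, PC9 osimertinib, H1650 erlotinib and H1650 osimertinib against T0, and the MUC1 change in PC9 with erlotinib was 3.32; no call of the 9 mucins changed, and among the other mucins 1 gene was called higher in H1650 with erlotinib, where 0 were without the block. Depth limits MUC4, MUC5B and MUC20 in H1650, MUC5B and MUC15 in PC9, and MUC5AC, MUC13 and MUC21 throughout.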
